A study of Mus musculus with 9 samples.

Results

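RNA levels are described here for 9 kinase genes of the mitogen-activated protein kinase (MAPK) cascades that act around tristetraprolin (TTP). They were chosen by gene name and comprise 3 MAPK kinases (Map2k3, Map2k4 and Map2k6), 4 MAPKs (Mapk14, Mapk8, Mapk9 and Mapk3) and 2 MAPK-activated kinases (Mapkapk2 and Mapkapk3). All 9 were found among the 25494 genes of the deposited library table, and all 9 were listed in each comparison. The cells were immortalized mouse bone marrow-derived macrophages (BMDMs), that is, macrophages grown from marrow with M-CSF, from mice lacking TTP (Zfp36tm1Pjb), selected for CD11b and F4/80. All groups carried the oncogenes hcmyc and hRasG12V and an all-in-one tet-inducible vector, delivered by retrovirus, for GFP alone, GFP-TTP or GFP-TTP-AA. In TTP-AA, serines 52 and 178, through which MK2 phosphorylates TTP, were replaced by alanine (S52A, S178A). The vectors held only the coding sequence of TTP. All 9 libraries, 3 per group, came from cells in which doxycycline (1 µg/ml) had been present for 6 h and LPS, the lipopolysaccharide of bacterial outer membranes, for 1 h at that concentration, so no unstimulated level was compared. The groups are called GFP, TTP and TTP-AA below. Each transgene stands for a separately transduced cell population, and differences between these populations and effects of the transgene cannot be told apart.

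LPS binding to its receptor leads, through the kinase TAK1, to activation of MAPK kinases. Map2k3 and Map2k6 (the proteins MKK3 and MKK6) activate p38 MAPK, of which Mapk14 encodes the alpha form, the main form in macrophages. Map2k4 (MKK4) activates JNK, whose ubiquitous forms are encoded by Mapk8 (JNK1) and Mapk9 (JNK2), and Mapk3 encodes ERK1. Active p38 phosphorylates the kinases MK2 (Mapkapk2) and MK3 (Mapkapk3). MK2 phosphorylates TTP, which prevents TTP from recruiting the deadenylation machinery and stabilizes mRNAs with AU-rich elements. These kinases are switched on by phosphorylation, so the RNA levels given below do not measure their activity.

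The deposited library values were fitted means of the authors' model, in which a library factor is multiplied by terms for the replicate number and for the condition. They are called fitted normalized counts here, are given with the library factor removed, and show no scatter between replicates of their own. Whether the values of groups overlap is thus set by the sizes of the fitted terms, and is given below as a description that adds no support from replicates. Errors are therefore the standard errors (SE) of the authors' log2 fold changes, from 3 libraries per group, and a call is an adjusted p under 0.05 in the authors' DESeq2 test, adjusted over all genes listed. The summed fitted means, which stand in for depth, ran from 21482954 in TTP replicate 1 to 102613526 in TTP-AA replicate 3. Zfp36, disrupted in the host and supplied by 2 of the transgenes, differed from GFP by 0.04 ± 0.17 (log2, SE) with TTP (adjusted p = 0.930) and was 0.69 ± 0.17 higher with TTP-AA. Its RNA therefore did not set the group labelled TTP apart from GFP, and the labels of these groups are used as given. At the protein level, the paper reports by western blot that GFP-TTP and GFP-TTP-AA reached similar amounts in these cell lines.

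The 7 macrophage markers found had summed levels of 643163 in GFP, 530386 in TTP and 733544 in TTP-AA. Lyz2 made up 587412, 482167 and 663034 of these sums, which therefore follow that gene. Emr1, the gene of F4/80, fell by 0.75 on the log2 scale with TTP and rose by 0.68 with TTP-AA, both against GFP, and was 1.43 higher with TTP-AA than with TTP. Fcgr1 fell by 1.20 with TTP against GFP, from a level of 658 to 285, stood at 502 with TTP-AA (-0.39 against GFP, not called) and was 0.82 higher with TTP-AA than with TTP. Lyz2 was 0.46 higher with TTP-AA than with TTP, and Cd68, Csf1r, Itgam and Mertk were not called. All 9 markers found of T cells, B cells and fibroblasts were below a level of 10 in every group. Of 3 neutrophil markers, Elane and Mpo lay at 0.477 to 0.498, while S100a8 rose from 137 in GFP and 139 in TTP to 233 in TTP-AA. Of 3 dendritic cell markers, Zbtb46 fell by 1.10 with TTP-AA against GFP, from a level of 38.5 to 17.9, and Flt3 and Itgax were not called. The part of these markers in the results below was not tested. In bulk RNA, fewer cells of a type and less RNA per cell cannot be told apart.

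TTP binds AU-rich elements with a core that reads TATTTAT in DNA letters, so the 3'UTRs of the 9 kinases were searched for that core on the transcript strand. In the transcript with the longest coding sequence, Map2k6 alone held it, with 2 copies in a 3'UTR of 775 nt. Mapk14 held 1 copy in a longer annotated 3'UTR of 3042 nt, and none in the 2068 nt of the transcript used. The 3 sites are shown because they are the only candidate TTP binding cores that this search found among the 9 genes. They are read from GENCODE M21 (GRCm38) transcripts with 9 bases on each side, and capitals mark the core. The Map2k6 sites lie at chr11:110513251-110513275 and chr11:110513330-110513354, and the Mapk14 site at chr17:28741834-28741858, all on the plus strand.

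Map2k6 site 1: ttattttaaTATTTATgtttcagtg

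Map2k6 site 2: actcggcagTATTTATagggctttt

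Mapk14 site: tcgcaaatgTATTTATtggtgccaa

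The sites of Map2k6 began at positions 394 and 473 of the 3'UTR, and that of Mapk14 at position 710. Among 11410 protein-coding genes with a 3'UTR that were listed, 27.4% held TATTTAT at least once in the transcript with the longest coding sequence, and 32.7% in any annotated 3'UTR. Of the 2388 genes with a 3'UTR of a length like that of Map2k6, 21.6% held the core and 4.15% held it as often. By the same search, Tnf, a well-known TTP target, held 8 copies in 764 nt, and Cxcl2, another, held 7 in 734 nt. The shorter pentamer ATTTA, which TATTTAT contains, occurred in 6 of the 9 kinases against 66.1% of all genes. It was found 7 times in Mapk9, 4 times each in Map2k4, Map2k6 and Mapk8, and once each in Mapk14 and Mapkapk2, and not in Mapkapk3, Map2k3 or Mapk3. These are matches of letters, and binding was not measured here. The study itself mapped binding of TTP and TTP-AA in these cells by crosslinking and immunoprecipitation (iCLIP), and those data were not used here.

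The first question was whether TTP or its mutant changed the RNA of the kinases that lie upstream of TTP phosphorylation. In the group labelled TTP, none of the 9 kinases was called against GFP, where 9.16% of 11977 genes were called (4.08% higher and 5.08% lower). None of the 9 had an unadjusted p under 0.05 in the authors' DESeq2 test either, where 21.3% of all genes did. The largest difference was that of Mapk9, at -0.18 ± 0.10 (95% interval on the linear scale, -23.0% to 1.21%). With TTP-AA against GFP, 5 of the 9 were called, where 17.9% of 13205 genes were, and 6 had an unadjusted p under 0.05, where 29.1% did. Mapkapk2 and Mapkapk3 rose, where 9.11% of all genes were called higher, and Map2k6, Mapk9 and Mapk14 fell, where 8.77% were called lower. With TTP-AA against TTP, 3 of 9 were called, where 28.6% of all genes were, and 4 had an unadjusted p under 0.05, where 38% did. Mapkapk3 was higher, beside 14% of all genes called higher, and Map2k6 and Mapk8 were lower, beside 14.6% called lower. Over the 9, the median change was -0.04 with TTP against GFP, -0.12 with TTP-AA against GFP and -0.11 with TTP-AA against TTP, and that of all genes lay between -0.01 and 0.01. The comparisons share libraries in pairs and are not independent of each other.

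**Figure D1:**
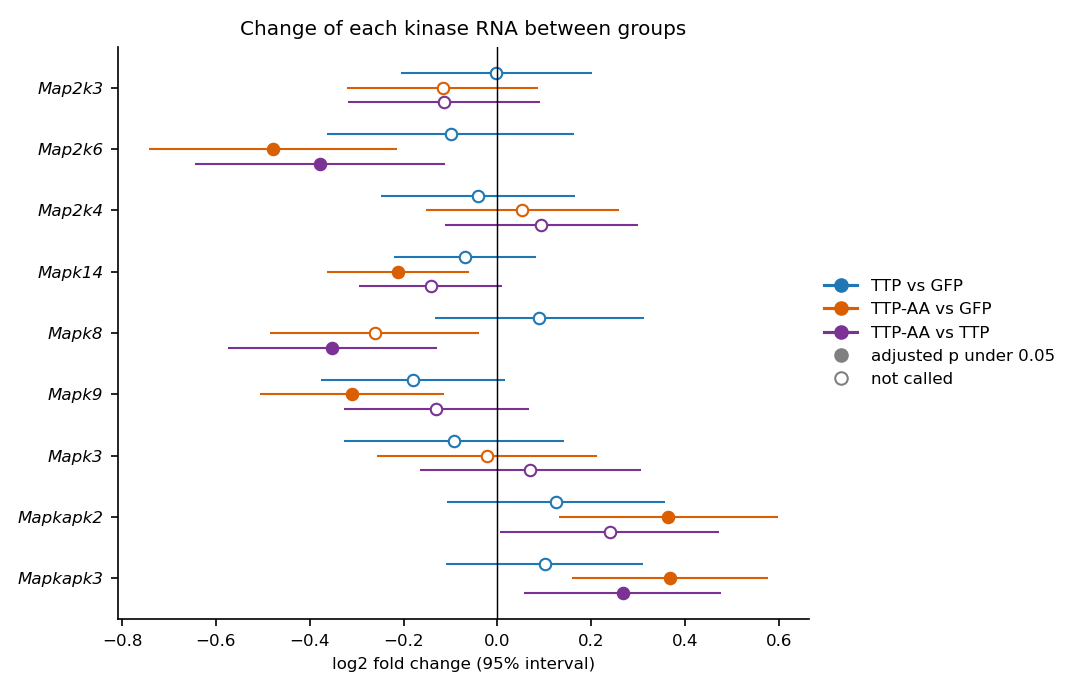
Log2 fold change (x axis) of each of the 9 kinase RNAs (y axis) in the 3 comparisons, with the 95% interval as a line. Filled points have an adjusted p under 0.05, of which there are none with TTP against GFP, 5 with TTP-AA against GFP and 3 with TTP-AA against TTP.

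In a test of both changes against GFP together, 5 of the 9 differed among the 3 groups, where 33.1% of 11977 genes did. The adjusted p was 0.00485 for Map2k6, 0.00807 for Mapkapk3, 0.0219 for Mapk8, 0.0269 for Mapkapk2 and 0.0279 for Mapk9. Mapk14 missed the threshold at 0.0596. Map2k3, Map2k4 and Mapk3 had adjusted p of 0.581, 0.768 and 0.808. These calls rest on the authors' normal approximation. Under 3 stricter readings, the Holm adjustment, a t distribution with 4 degrees of freedom, and Wald scores divided by their central spread, 0 of the 9 were called in any pairwise comparison. These readings call few genes of any kind, namely 2.44% to 7.25% of all genes with Holm, 1.49% to 2.06% with the divided scores and 0% with the t distribution. At an unadjusted p under 0.05, the divided scores left 1 of the 9 with TTP-AA against GFP, and the t distribution 4. The share of all genes at that level was not worked out under these readings, so these counts are a description only.

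Among the MAPK kinases, Map2k6 (ENSMUSG00000020623, chr11:110399122-110525522 on GRCm38, plus strand) had the lowest RNA level per length of the 3 and the widest range over groups of all 9 kinases. Its fitted normalized counts were 368, 351 and 420 in GFP replicates 1 to 3, 343, 328 and 392 in TTP, and 264, 252 and 302 in TTP-AA. The fitted values of TTP-AA lay below those of the other groups, while those of GFP and TTP overlapped. Against GFP, Map2k6 fell by 28.2% with TTP-AA (log2 fold change -0.48 ± 0.13, adjusted p = 0.00456, 95% interval -40.2% to -13.8%). That change was larger in size than those of 90.3% of all genes listed. Against TTP it fell by 23.1% (-0.38 ± 0.14, adjusted p = 0.0228), a call that was lost, at -0.24, after subtraction of the median of chromosome 11 (adjusted p = 0.189). TTP differed from GFP by -0.10 ± 0.13. The order was thus GFP, TTP, TTP-AA, of which the first pair did not differ beyond its error.

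Map2k3 (ENSMUSG00000018932, chr11:60932033-60952811, plus strand), which shares p38 as substrate with Map2k6, was not called in any comparison. Its fitted normalized counts were 3738, 2874 and 4281 in GFP, 3732, 2870 and 4274 in TTP, and 3449, 2652 and 3951 in TTP-AA. These overlap, since its fitted range over replicate numbers was wider than that over groups. The difference was -0.12 ± 0.10 for TTP-AA vs GFP (adjusted p = 0.503), with a 95% interval of -19.9% to 6.26%. Map2k4 (ENSMUSG00000033352, chr11:65688243-65788297, minus strand), a kinase of JNK, had levels of 1808 to 2452 in GFP. Its levels, which overlapped between groups as well, were 1757 to 2382 in TTP and 1875 to 2543 in TTP-AA. It differed by 0.05 ± 0.11 for TTP-AA vs GFP (adjusted p = 0.799, 95% interval -10.1% to 19.6%) and by 0.09 ± 0.11 for TTP-AA vs TTP. The ratio of Map2k3 to Map2k6 per kb of exon was 9.84 in GFP, 10.5 in TTP and 12.6 in TTP-AA.

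Among the MAPKs, Mapk14 (ENSMUSG00000053436, chr17:28691329-28748406, plus strand), the p38 that activates MK2, had fitted normalized counts of 7407, 6808 and 7002 in GFP, 7061, 6489 and 6674 in TTP, and 6398, 5880 and 6048 in TTP-AA. The fitted values of TTP-AA were below those of the other groups, which overlapped each other. Mapk14 fell by 13.6% with TTP-AA against GFP (-0.21 ± 0.08, adjusted p = 0.0387, 95% interval -22.2% to -4.04%), a call that was lost after subtraction of the median of chromosome 17 (adjusted p = 0.0909). TTP lay between the other groups, and neither difference from it passed the test, with -0.07 ± 0.08 between TTP and GFP and -0.14 ± 0.08 between TTP-AA and TTP.

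Of the JNK genes, Mapk8 was called lower with TTP-AA against TTP and Mapk9 against GFP, and no comparison called both. Mapk8 (JNK1, ENSMUSG00000021936, chr14:33377898-33447158, minus strand) had fitted normalized counts of 737, 654 and 809 in GFP, 784, 696 and 861 in TTP, and 614, 546 and 674 in TTP-AA. The fitted values of TTP-AA lay below those of TTP and overlapped those of GFP. Mapk8 fell by 21.6% with TTP-AA against TTP (-0.35 ± 0.11, adjusted p = 0.0105, 95% interval -32.9% to -8.50%). Against GFP the difference of -0.26 ± 0.11 did not pass (adjusted p = 0.0949, unadjusted 0.0215 in the authors' DESeq2 test).

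Mapk9 (JNK2, ENSMUSG00000020366, chr11:49846751-49886421, plus strand) had fitted normalized counts of 2376, 2254 and 2115 in GFP, 2097, 1990 and 1867 in TTP, and 1916, 1818 and 1706 in TTP-AA. GFP lay above both other groups, which overlapped. Mapk9 fell by 19.3% with TTP-AA against GFP (-0.31 ± 0.10, adjusted p = 0.0160, 95% interval -29.6% to -7.58%), a call that was lost, at -0.21, after subtraction of the median of chromosome 11 (adjusted p = 0.152). TTP differed from GFP by -0.18 ± 0.10 (adjusted p = 0.290). The difference between TTP-AA and TTP was -0.13 ± 0.10. Mapk3 (ERK1, ENSMUSG00000063065, chr7:126759601-126765819, plus strand) had levels of 1196 to 1285 in GFP, 1122 to 1205 in TTP and 1178 to 1265 in TTP-AA. It differed by -0.02 ± 0.12 for TTP-AA vs GFP (adjusted p = 0.932), with a 95% interval of -16.3% to 15.8%.

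The MAPK-activated kinases were the members that rose. Mapkapk2 (MK2, ENSMUSG00000016528, chr1:131053700-131097826, minus strand), which phosphorylates TTP, had fitted normalized counts of 17886, 20050 and 29427 in GFP, 19512, 21872 and 32101 in TTP, and 23033, 25819 and 37894 in TTP-AA. The fit gives every group the same order of replicate numbers, here with replicate 3 the highest, and the groups overlapped. Mapkapk2 rose by 28.8% with TTP-AA against GFP (0.36 ± 0.12, adjusted p = 0.0169, 95% interval 9.59% to 51.3%). The differences of 0.13 ± 0.12 between TTP and GFP and of 0.24 ± 0.12 between TTP-AA and TTP did not pass (adjusted p = 0.603 and 0.119).

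Mapkapk3 (MK3, ENSMUSG00000032577, chr9:107254927-107289877, minus strand), a close relative that shares substrates with MK2, had fitted normalized counts of 2297, 2687 and 2599 in GFP, 2463, 2882 and 2787 in TTP, and 2965, 3469 and 3355 in TTP-AA. TTP-AA values lay above those of both other groups. Mapkapk3 rose by 29.1% with TTP-AA against GFP (0.37 ± 0.11, adjusted p = 0.00616, 95% interval 11.6% to 49.3%) and by 20.4% against TTP (0.27 ± 0.11, adjusted p = 0.0448). TTP differed from GFP by 0.10 ± 0.11. The call against TTP was lost once the trend with GC content and length was removed (adjusted p = 0.0627).

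**Figure D2:**
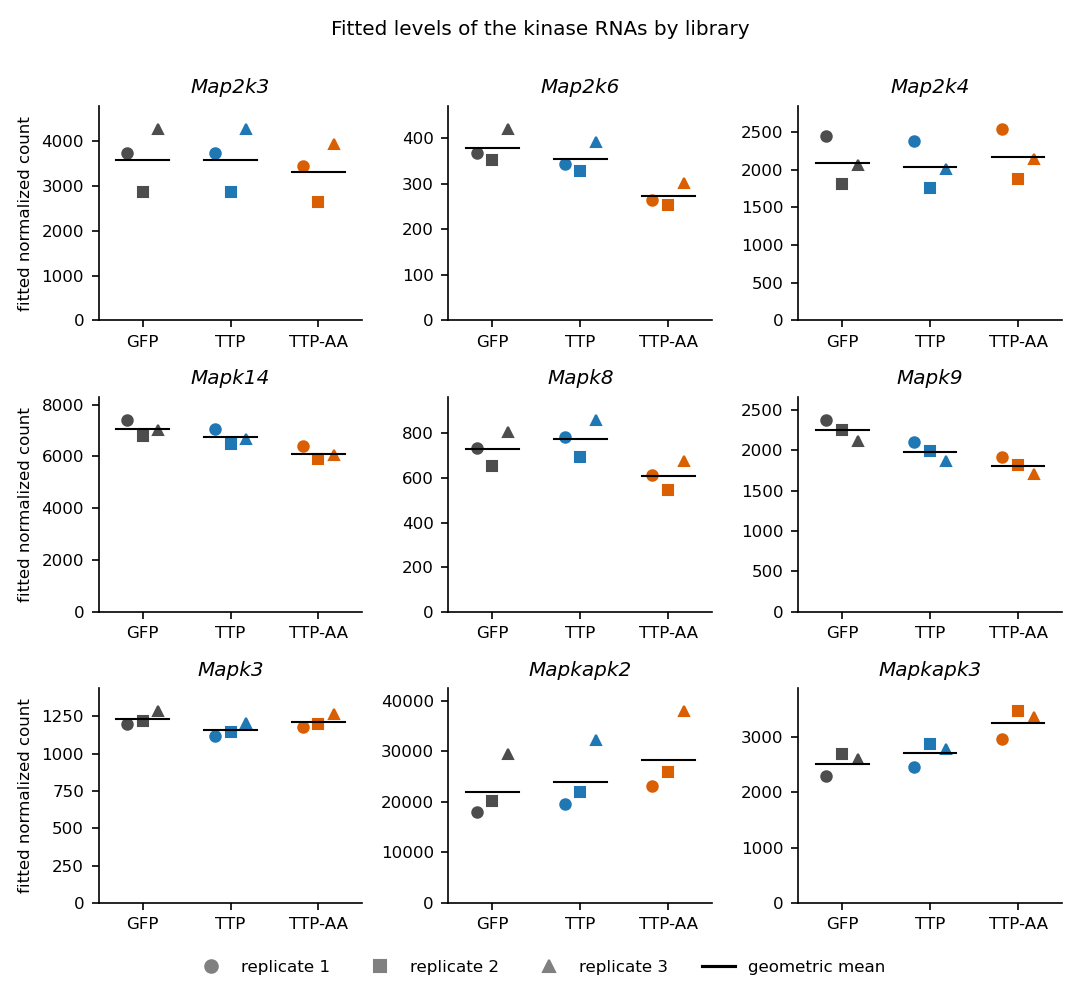
Fitted normalized counts (y axis, from 0) of each kinase RNA in the GFP, TTP and TTP-AA libraries, with replicate numbers as symbols and the geometric mean of each group as a line. The points are fitted values, so the same pattern of replicate numbers recurs in each group by construction. All fitted values of Map2k6 and Mapk14 are lower, and those of Mapkapk3 higher, in TTP-AA than in the other groups.

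Per kb of joined exons, and averaged over groups, Mapkapk2 had the highest level of the 9, at 8316, above 98.3% of genes listed. Mapk14 followed at 1518 and Map2k3 at 1067, above 88.7% and 84.2% of genes. Mapk3, Mapkapk3 and Map2k4 lay at 532, 511 and 453, and Mapk9 at 297. Map2k6 and Mapk8 were the lowest, at 97.4 and 61.9, above 35.0% and 28.0% of genes. The order rests on the length used. With the length of the transcript with the longest coding sequence, Mapk3 and Mapkapk3 changed places, as did Map2k6 and Mapk8, and over all groups the ratio of Mapk9 to Mapk8 was 1.57 where joined exons gave 4.80. The ratio of Mapkapk2 to Mapk14, the kinase to its activator, was 4.47 per kb in GFP, 5.11 in TTP and 6.66 in TTP-AA. That of Mapkapk2 to Mapkapk3 was 15.8, 16.1 and 15.8, and over all groups 16.3 with joined exons and 8.80 with the transcript of the longest coding sequence.

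The genes lie on 6 chromosomes, and 4 of them, Map2k3, Map2k4, Map2k6 and Mapk9, lie on chromosome 11. No exon of the 9 overlapped an exon of another gene in GENCODE M21. The genes of chromosome 11 as a whole were lower with TTP-AA, with a median of -0.10 against GFP and -0.14 against TTP over 1125 genes, where the median of all genes was 0.00 and -0.01. After subtraction of the median of each chromosome, 3 of the 9 were called against GFP, where 16.1% of all genes were, and 2 of the 9 against TTP, where 25.9% were. Map2k6 stood at -0.38 against GFP and was still called (adjusted p = 0.0363). Mapkapk2 and Mapkapk3 against GFP, and Mapk8 and Mapkapk3 against TTP, were still called.

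**Figure D3:**
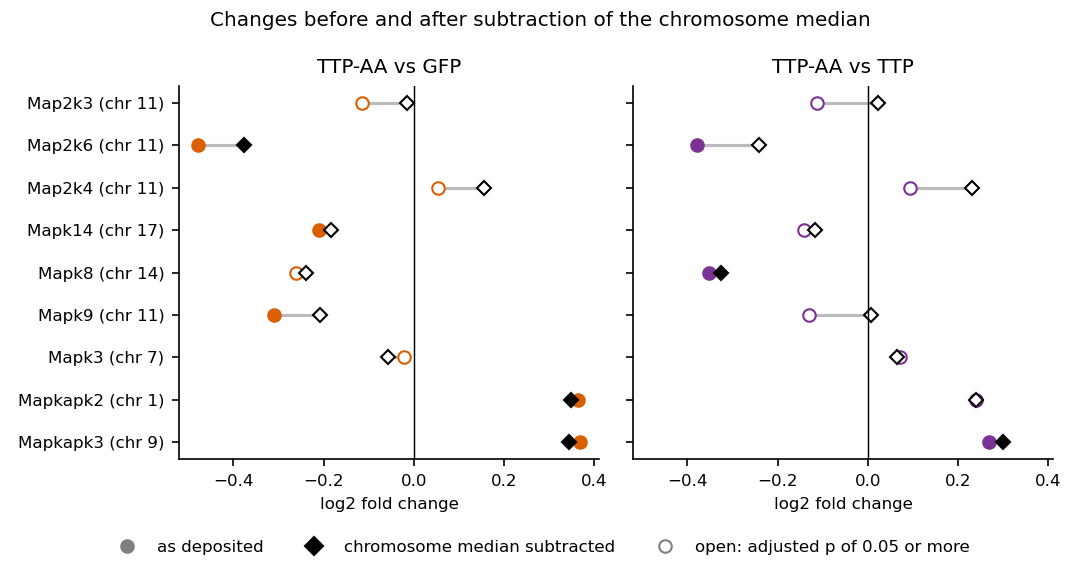
Log2 fold changes (x axis) of the 9 kinase RNAs (y axis, with chromosome) with TTP-AA against GFP (left) and against TTP (right), as deposited (circles) and after subtraction of the median of their chromosome (diamonds). Filled symbols are called at an adjusted p under 0.05; with subtraction 3 of 9 were called against GFP (16.1% of all genes) and 2 of 9 against TTP (25.9% of all genes).

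The model held a term for library date, which divided the libraries as the replicate numbers do. For Mapkapk2 the fitted range over replicate numbers was 0.72 on the log2 scale, wider than its range over groups of 0.36. Map2k3 and Map2k4 moved in the same manner, by 0.57 against 0.12 and by 0.44 against 0.09. Mapk3 had near-equal ranges of 0.10 and 0.09, and the other 5 moved more over groups. Map2k6 had ranges of 0.26 over replicate numbers and 0.48 over groups, and Mapkapk3 of 0.23 and 0.37. In all, 5 of the 9 had a wider range over groups, where 40.2% of 13075 genes did.

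**Figure D4:**
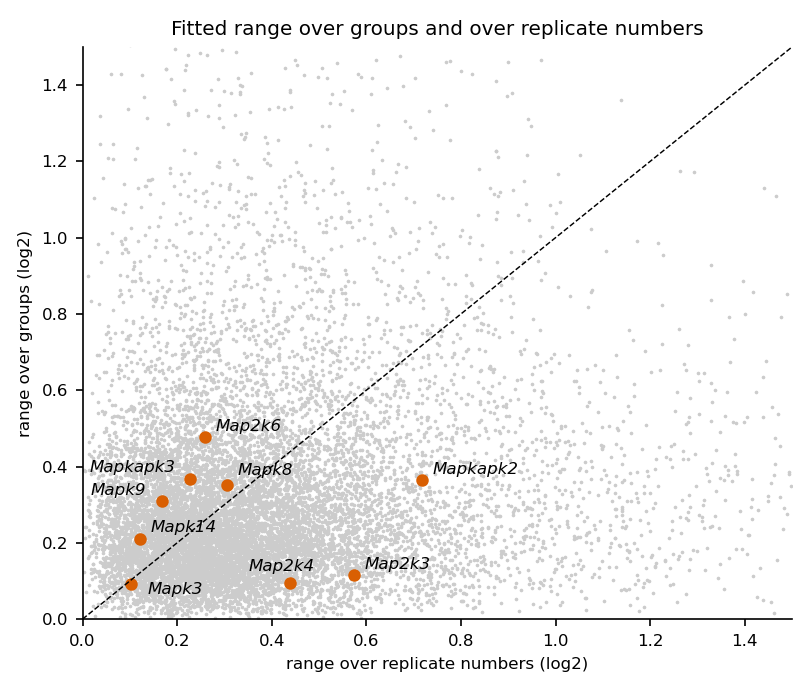
Range of the fitted log2 level over the 3 groups (y axis) against the range over the 3 replicate numbers (x axis), for the 9 kinases (orange) and all genes (grey), with equality as a dashed line. Map2k6, Mapkapk3, Mapk9, Mapk14 and Mapk8 lie above the line, and 335 genes with a range over 1.5 lie outside the plot.

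The other genes of the cascades were taken as 60 genes in 8 lists, of which 54 were listed in the comparison of TTP with GFP and 55 in each of the others. With TTP against GFP 3 rose and 3 fell, with TTP-AA against GFP 4 rose and 5 fell, and with TTP-AA against TTP 6 rose and 5 fell. These were 11.1%, 16.4% and 20.0% of those listed, beside 9.16%, 17.9% and 28.6% of all genes.

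Upstream of the MAPK kinases, 1 of 13 genes of the MAP3K tier was called with TTP-AA against GFP and 2 of 13 against TTP. Map3k1, which activates MKK4, fell by 0.63 ± 0.13 on the log2 scale against GFP and by 0.42 ± 0.13 against TTP. Tab2, an adaptor of TAK1, rose by 0.33 ± 0.12 against TTP. Map3k7, the gene of TAK1 itself, differed by -0.19 ± 0.10 against GFP and -0.21 ± 0.10 against TTP and was not called. Of 7 genes of the Ras-Raf tier, the scaffold Ksr1 rose by 0.93 ± 0.22 against GFP and by 1.11 ± 0.22 against TTP, at a mean of only 16.9 normalized counts.

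Of the 4 other MAPK kinases, Map2k1 (MEK1), which activates ERK, fell by 0.31 ± 0.07 with TTP-AA against TTP. Its -0.19 ± 0.07 against GFP was not called. Of the other p38 forms, Mapk12 rose by 0.66 ± 0.22 with TTP and 0.61 ± 0.22 with TTP-AA, against GFP. Mapk13 was lower with TTP, by -0.73 ± 0.23, and higher with TTP-AA, by 0.65 ± 0.23. Both had low means, of 61.6 and 29.9, where that of Mapk14 was 6632, and Mapk11 was not called. Mapk10 and Mapk15 were not listed.

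Of the 8 other MAPK-activated kinases, Mknk2 (MNK2), which phosphorylates eIF4E, fell by 0.31 ± 0.08 with TTP and rose by 0.48 ± 0.08 with TTP-AA, against GFP, and the difference between them was 0.79 ± 0.08. Rps6ka4 (MSK2) rose by 0.38 ± 0.11 with TTP against GFP, and its 0.24 ± 0.11 with TTP-AA was not called. Among scaffolds, Mapk8ip1 (JIP1), which binds JNK, rose by 0.62 ± 0.15 with TTP and fell by 0.77 ± 0.16 with TTP-AA, a difference of -1.38 ± 0.16. Lamtor3, a scaffold of MEK1 and ERK, fell by 0.39 ± 0.10 with TTP against GFP, and its -0.26 ± 0.10 with TTP-AA was not called.

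Of the MAPK phosphatases outside the Dusp family, Ppm1b fell by 0.28 ± 0.08 with TTP-AA against GFP and by 0.31 ± 0.08 against TTP. Ppm1a rose by 0.25 ± 0.09 with TTP-AA against TTP, and its 0.25 ± 0.09 against GFP was not called. Of 9 substrates listed, the transcription factor Mef2c, a target of p38, fell by 0.85 ± 0.15 against GFP and by 0.78 ± 0.15 against TTP with TTP-AA. Jun, the target of JNK, fell by 0.45 ± 0.13 with TTP-AA against GFP.

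**Figure D5:**
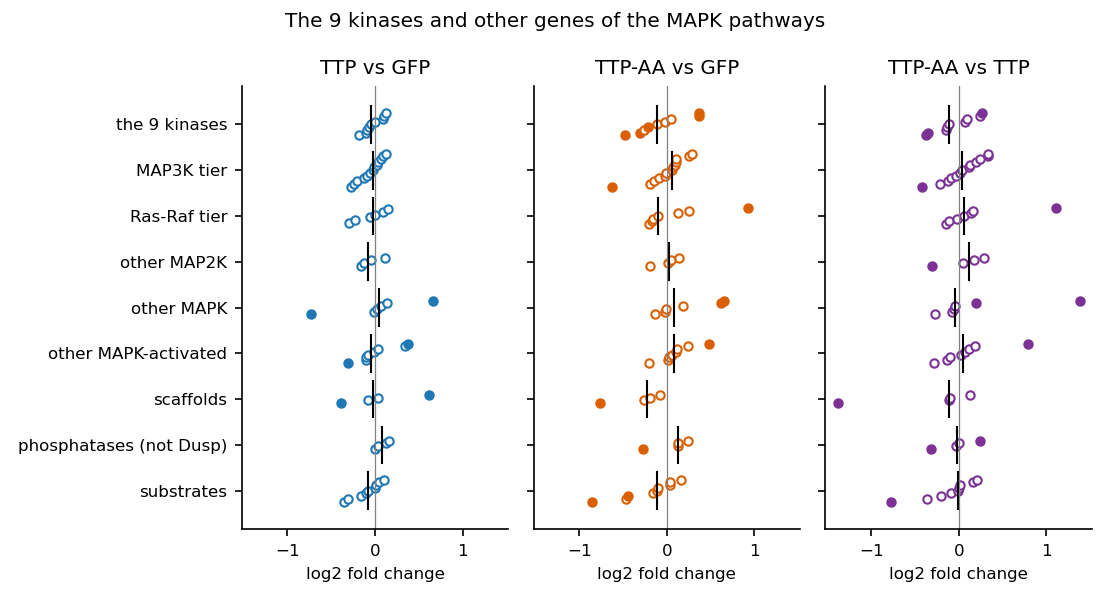
Log2 fold change (x axis) of the 9 kinases and of the other genes of each list (y axis) in the 3 comparisons, with each point a gene, filled where the adjusted p was under 0.05, and the median of the list as a vertical bar. List medians lie between -0.23 and 0.13, and the widest changes are those of Mapk13, Mapk8ip1 and Ksr1 in TTP-AA vs TTP.

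The member with the smallest p among the 3 groups was Map2k6. Of 11143 genes with a mean of at least 50, those nearest to it in both changes against GFP were Ddx6, Fos and Tfcp2, at distances of 0.0059, 0.012 and 0.014 on the log2 scale. Ddx6, a helicase of mRNA decay and repression, differed from GFP by -0.10 with TTP and by -0.47 with TTP-AA, where Map2k6 stood at -0.10 and -0.48. The likeness is over 3 groups only, and the genes were picked for small distances, which lie far below the SE of Map2k6 (0.13). Fos, at -0.47 ± 0.22 with TTP-AA against GFP, was not called (adjusted p = 0.127 in the authors' DESeq2 test), where Map2k6 was. Shared regulation of these genes was not tested.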

How the data were processed

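Ribosomal RNA-depleted total RNA of 9 libraries was sequenced. Per the labels and the study's methods, the authors trimmed reads with Trim Galore, aligned them to GRCm38 with TopHat (2.0.12 in the submitters' processing notes; the methods name another version), counted them per gene (HTSeq is named; use of strand was not given in the sources used here) and fitted DESeq2 1.6.3 with library date and condition. The deposited library values (unit signal) are fitted means of that model: between libraries of the same number, log2 ratios departed from the deposited log2 fold changes only by a constant (to within 1.42e-14), and none of 25494 genes was at 0. They carry no residual, so no test, leave-one-out fit or interval could be made from them. The authors' comparison tables hold a mean signal, a log2 fold change with its SE, a Wald score, and p-values with their adjusted values, and these deposited statistics were used as the test, two-sided at an adjusted p of 0.05. The deposited adjusted p-values were within 0.00114 of Benjamini-Hochberg values recomputed from the listed p-values, after 3 repeated identifiers per table were counted once. The lowest listed means were 23.0 in the comparison of TTP with GFP and 8.98 in the others, and all 9 kinases passed. Whether fold changes were shrunk is not given in the sources used here.

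Computed from these values were 95% intervals (normal), a chi-square test over the 3 groups, levels without library factors, levels per kb, chromosome medians and motif counts, with Python 3.11.15, numpy 2.4.6, pandas 2.3.3, scipy 1.17.1 and GENCODE M21 (GRCm38). Whether the calls hold at their stated error rate in these libraries was not tested. The members and lists were chosen with earlier results of these data known. Every member was named, of each list at most 4 genes with the smallest adjusted p (1 such gene is not reported here), and the 3 genes most like the member with the smallest p among groups. Replicates are called biological in the study's description, and whether they came from separate transductions is not given in the sources used here. Depth of single libraries is known only through sums of fitted means. For the calls, 7 alternatives were tried.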

Additional observations from a re-analysis of the deposited data

Results flagged for a closer look

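The 3 kinases Mapkapk3, Map2k6 and Mapk8 changed differently with TTP-AA than with TTP, both against GFP, by the authors' DESeq2 test of TTP-AA vs TTP, which is the difference of both changes. That is 3 of 9, where 28.6% of all genes were called. Mapkapk3 was higher by 0.27 (log2), with 0.37 for TTP-AA and 0.10 for TTP. Map2k6 differed by -0.38, with -0.48 and -0.10. Mapk8 differed by -0.35, with -0.26 and 0.09. The adjusted p-values were 0.0448, 0.0228 and 0.0105. After subtraction of the chromosome median, the difference of Map2k6 was -0.24 and was not called (adjusted p = 0.189). Without the trend on GC and length, that of Mapkapk3 was not called (adjusted p = 0.0627). None of the 3 was called with the Holm adjustment, with a t distribution or with Wald scores divided by their central spread. These readings called only 7.25%, 0% and 2.01% of all genes in this comparison.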

How the results depend on the processing

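No paired analysis was possible because values per library come from the authors' fit and hold no residuals. For the same reason the fits without the replicate block, the leave-one-out fits and the other pseudocount were not run; the authors' own model had library date, which follows the replicate numbers, as a term. With Wald scores divided by their central spread (1.51, 1.77 and 2.17 in the 3 comparisons), 0 of the 9 kinases were called with TTP-AA against GFP, 0 against TTP and 0 among the 3 groups, and 1, 0 and 0 had an unadjusted p under 0.05. The divided scores called 1.49% of all genes with TTP-AA against GFP and 2.01% against TTP. With the Holm adjustment 0, 0 and 0 of the 9 were called, where 3.82% of all genes were against GFP and 7.25% against TTP. With a t distribution of 4 degrees of freedom 0 were called against GFP and 0 against TTP, and 0 of all genes were called in any comparison. Of the 9, 4 and 2 had an unadjusted p under 0.05. For these unadjusted counts, and those of the divided scores, the share of all genes was not worked out. After subtraction of chromosome medians 3 were called against GFP (16.1% of all genes), 2 against TTP (25.9%) and 3 among the 3 groups. Map2k3 and Mapk9 for TTP-AA vs TTP then turned to 0.0236 and 0.0067. Removal of the GC and length trend left 5 calls against GFP (17.7% of all genes), 2 against TTP (29.4%) and 6 among groups. The share of all genes called among groups was not worked out under these alternatives. A mean of at least 50, or adjustment over genes listed in all 3 comparisons, changed no call of the 9. For TTP vs GFP 0 were called under all 7 alternatives. With ATTTA 6 kinases held the motif, and with any annotated 3'UTR 2 held TATTTAT. Under the alternatives, calls over all genes ran from 0 to 1128 with TTP against GFP (1097 as reported), from 0 to 2319 with TTP-AA against GFP (2361) and from 0 to 3859 with TTP-AA against TTP (3780). Scaling by library totals moved the median of all changes by -0.010 and changed no called direction.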
